A study of Homo sapiens with 8 samples.

Results

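The adrenergic core regulatory transcription factors are the DNA-binding proteins that act together in sympathetic neurons, chromaffin cells and adrenergic neuroblastoma, and 8 of their genes were examined: PHOX2A, HAND1, HAND2, GATA2, GATA3, ISL1, TFAP2B and INSM1. They were taken by symbol from a table of 47591 genes, and all 8 were found. The RNA-seq experiment asked how the transcriptome of SH-SY5Y cells, an established adrenergic human neuroblastoma line, differs when PRPF40B, a splicing factor, is silenced. G2 cells carried CRISPR/Cas9 with a guide against PRPF40B (3 libraries), scramble (SCR) cells carried CRISPR/Cas9 with a control guide (3 libraries), and WT cells were not edited (2 libraries). G2 and SCR cells were kept in puromycin, which the methods do not state for WT cells. The edited cells were grown from colonies obtained by limiting dilution, and the number of colonies behind the G2 and SCR lines is not given in the sources used here, so the guide and the colony cannot be told apart. The libraries are called biological replicates, but nothing says that they came from separate cultures, so the p-values measure the spread between these libraries, which may be technical.

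Neuroblastoma arises from the sympathetic branch of the neural crest. In the adrenergic state these factors bind each other's enhancers as well as their own, and the set is called a core regulatory circuit for that reason. A second, mesenchymal state of neuroblastoma uses other factors and makes extracellular matrix and vimentin. PHOX2A and ISL1 are homeodomain proteins, HAND1 and HAND2 are basic helix-loop-helix proteins, GATA2 and GATA3 are zinc finger proteins that bind the GATA sequence, TFAP2B is an AP-2 factor, and INSM1 is a zinc finger repressor of endocrine and neuronal precursors.

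The label adrenergic was checked against other genes. All 8 neuroblastoma markers examined were above a floor of 9 recovered counts, about 3 read pairs, with a summed normalized count of 293946 to 297990 in G2, 354596 to 364765 in SCR and 314322 to 330968 in WT. That sum is carried by STMN2 (mean 165517 in G2) and TUBB3 (84671). By the call rule given with the members, 4 of the 8 markers were lower and 0 higher in each G2 comparison: ALK, SYP and L1CAM in both, ELAVL4 in G2/SCR and TUBB3 in G2/WT. Over all genes tested, 11.8% were lower and 15.1% higher in G2/SCR, and 12.2% and 17.7% in G2/WT. ALK, a receptor kinase of neuroblastoma, had means of 1625 ± 34.0 in G2, 6034 ± 259 in SCR and 5096 ± 369 in WT, and SYP, a synaptic vesicle protein, 1223 ± 125, 3264 ± 179 and 3412 ± 85.6. SOX10, which defines Schwann cell precursors, was listed at 0 in all 8 libraries, and 4 of the 8 markers of that cell type stayed at or under the floor. The sum of all 8 was 170 to 267 in G2, 387 to 595 in SCR and 428 to 463 in WT. That sum was mostly S100B, with means of 162 in G2, 484 in SCR and 422 in WT. The sum of 8 mesenchymal markers was 332700 to 337423 in G2, 107489 to 113164 in SCR and 77376 to 88804 in WT, with 6 of the 7 tested higher and 0 lower in each G2 comparison, while FN1 among them was near 0. The part of these mesenchymal transcripts in the results that follow was not tested, and in bulk RNA fewer cells of a type and less RNA per cell cannot be told apart. Total recovered counts were 59804395 to 81080747 per library, and ribosomal RNA genes took 4.75% to 4.96% of the WT libraries against 0.384% to 0.587% of the others.

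The targeted gene was lower in the G2 libraries. PRPF40B had normalized counts of 840, 841 and 918 in G2, 1686, 1672 and 1669 in SCR, and 1972 and 1668 in WT. All 3 G2 libraries were below all 5 controls. The log2 fold change was -0.95 ± 0.08 (SE) in G2/SCR and -1.07 ± 0.09 in G2/WT (limma, adjusted p = 7.4e-07 and 7.9e-07).

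The sequence just before the transcription start of the members was read from RefSeq (GRCh38.p14), and 7 of the 8 had an entry. INSM1 had none. Each window holds the 250 bases upstream of the start. RefSeq had 2 promoters for GATA2 and 6 for GATA3, and a single window of each was read, the one at the table's own start. The 4 shown here are those of ISL1, which had the largest fall of the members in G2/SCR and shares its start region with a divergent transcript, of HAND2, the member with the highest level per kilobase, and of GATA2 and GATA3, the paralogs that moved apart. Capitals mark a GATA box (AGATAA, or TTATCT on the other strand), a homeodomain core (TAATTA) or an AP-2 site (GCCNNNGGC).
ISL1, chr5:51383198-51383447, plus strand: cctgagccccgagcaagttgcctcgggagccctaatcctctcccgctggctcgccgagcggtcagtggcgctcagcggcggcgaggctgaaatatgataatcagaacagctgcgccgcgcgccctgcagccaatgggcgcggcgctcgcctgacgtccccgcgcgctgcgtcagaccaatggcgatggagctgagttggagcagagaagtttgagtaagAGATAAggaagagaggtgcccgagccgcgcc
HAND2, chr4:173530230-173530479, minus strand: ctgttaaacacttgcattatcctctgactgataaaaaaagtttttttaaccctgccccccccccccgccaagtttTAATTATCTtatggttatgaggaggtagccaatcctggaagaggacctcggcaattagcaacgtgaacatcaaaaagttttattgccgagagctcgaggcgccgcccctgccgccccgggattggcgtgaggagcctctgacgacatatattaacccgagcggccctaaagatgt
GATA2, chr3:128493202-128493451, minus strand: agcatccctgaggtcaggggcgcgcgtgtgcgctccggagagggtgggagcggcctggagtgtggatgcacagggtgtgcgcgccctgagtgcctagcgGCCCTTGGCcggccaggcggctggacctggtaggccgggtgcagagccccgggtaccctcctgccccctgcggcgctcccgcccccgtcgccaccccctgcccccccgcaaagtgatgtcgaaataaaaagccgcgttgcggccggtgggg
GATA3, chr10:8054438-8054687, plus strand: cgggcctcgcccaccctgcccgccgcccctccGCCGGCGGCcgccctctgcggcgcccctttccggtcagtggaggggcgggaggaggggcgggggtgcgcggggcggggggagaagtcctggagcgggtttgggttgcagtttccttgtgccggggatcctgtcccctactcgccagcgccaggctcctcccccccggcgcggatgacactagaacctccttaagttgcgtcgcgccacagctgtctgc

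In the ISL1 window the GATA box began 31 bases before the start. The window of ISL1-DT, which is transcribed away from ISL1, contained the same 6 bases, beginning 90 bases before its own start. In the HAND2 window a GATA box, at 172 bases before the start, overlapped a homeodomain core at 175 bases, which gives the 9 capitals in a row. The AP-2 site lay 151 bases before the start in GATA2 and 218 bases in GATA3, and HAND1 had one at 72 bases.

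These letters were not particular to the members and occurred in 4.35% to 61.8% of all RefSeq windows, depending on the motif. Searched on both strands, a GATA box was found in 2 of the 7 member windows and in 9.17% of the 35116 RefSeq windows of the same length. An AP-2 site was found in 3 of 7 and in 19.8%, a homeodomain core in 1 of 7 and in 4.35%, and an E-box (CANNTG), the sequence bound by basic helix-loop-helix proteins, in 3 of 7 and in 61.8%. The E-box CATCTG, which also counts as an E-box in the wider search, was in none of the 7 and in 12.2% of all windows. The matches are descriptions of the sequence, and the experiment measured no binding.

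Among the members, 6 of the 7 that could be tested were lower in G2 than in SCR and 1, GATA3, was not called in either direction. A gene was called where limma gave an unadjusted p no larger than 0.05 and the fold was 1.5 or more. Of all 18947 genes tested, 26.9% were called in G2/SCR (11.8% lower and 15.1% higher). The median log2 fold change was -0.80 over the 7 members and -0.01 over all genes. In G2/WT, which shares the G2 libraries, 5 members were called, all lower, where 29.9% of all genes were called (12.2% lower and 17.7% higher), with a median of -0.65 for the members and 0.00 for all genes. None of the 7 was called in SCR/WT, where 16.3% of genes were called (10.7% higher and 5.63% lower). The libraries of G2 and SCR, and of G2 and WT, did not overlap for any of the 7, as for 61.8% and 65.4% of all genes, and those of SCR and WT did not overlap for 6 of the 7, as for 55.3% of all genes.

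**Figure D1:**
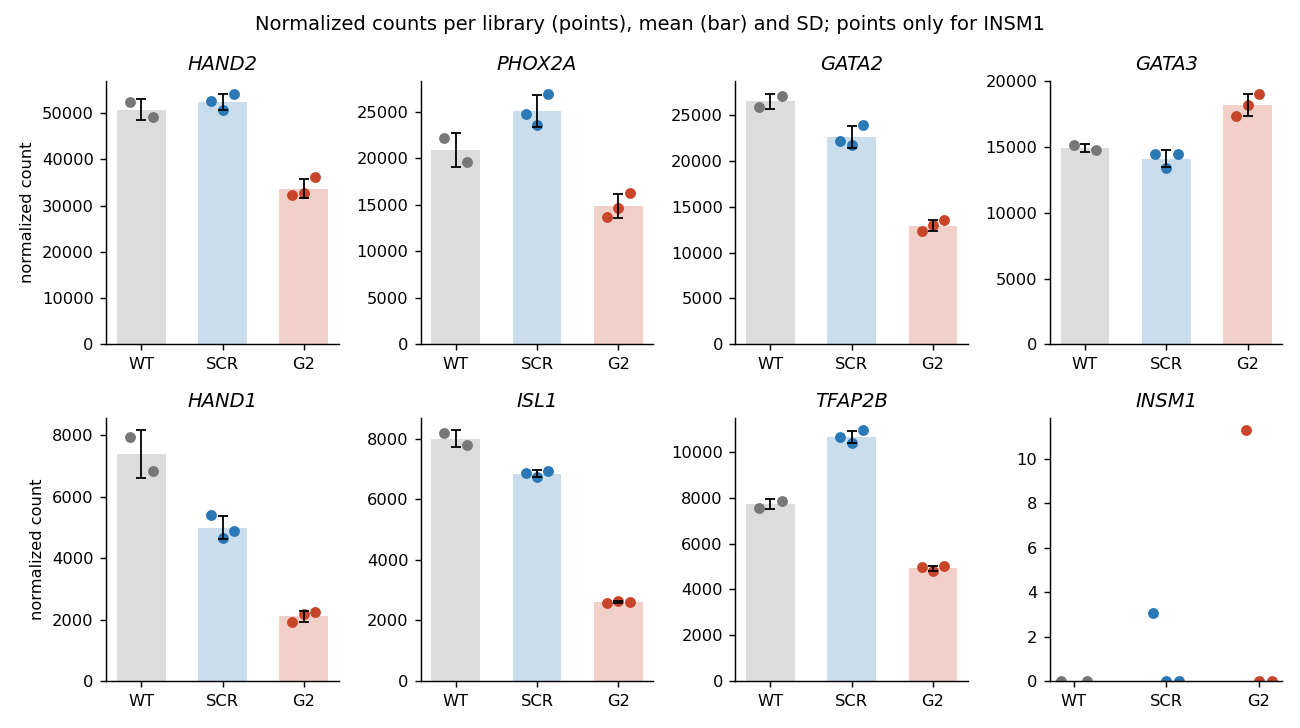
Normalized count (vertical axis, a separate scale for each panel) of the 8 members in the WT (grey), SCR (blue) and G2 (red) libraries. Points are libraries, bars means and error bars the SD, and INSM1 is drawn as points alone. In 6 panels all G2 points lie below the 5 control points, in the GATA3 panel they lie above, and INSM1 stays at 0 in 6 of 8 libraries.

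ISL1 and HAND1 had the largest falls. ISL1, a LIM homeodomain factor of sympathetic and motor neurons, lies on chr5:51383123-51394730 (hg38, plus strand). Its normalized counts were 2578, 2641 and 2602 in G2, 6877, 6718 and 6947 in SCR, and 8194 and 7795 in WT. The 3 lines did not overlap, with G2 lowest and WT highest, and the G2 libraries lay within an SD of 31.8 around a mean of 2607 (n = 3). ISL1 fell 2.63-fold in G2/SCR, a log2 fold change of -1.39 ± 0.05 (SE, limma adjusted p = 6.4e-10), and 3.06-fold in G2/WT, a log2 fold change of -1.62 ± 0.06 (adjusted p = 5.3e-10). The SCR/WT difference, -0.22 on the log2 scale, did not reach the fold required (adjusted p = 0.0092).

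HAND1, whose best known roles are in heart, placenta and sympathetic lineages, lies on chr5:154474972-154478264 (minus strand). The G2 libraries had normalized counts of 1910, 2164 and 2231, the SCR libraries 5398, 4667 and 4881, and the WT libraries 7935 and 6833. Again the 3 lines were separate, in the order G2, SCR, WT. The fall was 2.37-fold in G2/SCR (log2 fold change -1.25 ± 0.08, limma adjusted p = 1.2e-07) and 3.51-fold in G2/WT (log2 fold change -1.81 ± 0.09, adjusted p = 1.2e-08), the largest of any member in that comparison. In SCR/WT its log2 fold change of -0.57 (95% interval -0.77 to -0.37) lay just short of the fold required, and it was called there without SCR replicate 1 (-0.63) or without WT replicate 2 (-0.67).

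TFAP2B differed from these in the order of the controls. The gene, an AP-2 factor of the neural crest and sympathetic ganglia, lies on chr6:50818870-50847619 (plus strand). Normalized counts were 4969, 4785 and 5005 in G2, 10647, 10419 and 10958 in SCR, and 7575 and 7874 in WT. SCR was the highest line, WT stood between, and no libraries of different lines overlapped. TFAP2B fell 2.17-fold in G2/SCR (log2 fold change -1.12 ± 0.05, limma adjusted p = 3.7e-09) and 1.57-fold in G2/WT (-0.65 ± 0.06, adjusted p = 1.3e-06). The SCR/WT difference was 0.47 (95% interval 0.34 to 0.59, adjusted p = 7e-05) and was not called. With every library scaled to the same total, the G2/WT call was lost (-0.47) and TFAP2B was called higher in SCR/WT (0.74).

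The other homeodomain member, PHOX2A, is a determinant of noradrenergic identity that acts on the DBH promoter, and lies on chr11:72239077-72244176 (minus strand). The G2 libraries held 13681, 14622 and 16236 normalized counts, the SCR libraries 24783, 23561 and 26928, and the WT libraries 22196 and 19563. SCR was again above WT, and G2 below both. PHOX2A fell 1.69-fold in G2/SCR (log2 fold change -0.76 ± 0.08, limma adjusted p = 4.5e-06). In G2/WT the difference of -0.49 (95% interval -0.68 to -0.31, adjusted p = 0.00038) was 1.41-fold and was not called, and in SCR/WT it was 0.27 (adjusted p = 0.028), also not called. Its last 71 bases in the table overlap INPPL1, and the strand setting of the counting is not given in the sources used here.

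HAND2, needed for noradrenergic differentiation of sympathetic neurons, lies on chr4:173526091-173530229 (minus strand). It had 32254, 32652 and 36126 normalized counts in G2, 52689, 50662 and 54118 in SCR, and 52324 and 49141 in WT. The SCR and WT libraries overlapped, and the G2 libraries were below all of them. HAND2 fell 1.56-fold in G2/SCR (log2 fold change -0.64 ± 0.06, limma adjusted p = 1.7e-06). The G2/WT fall of 1.51-fold (-0.59 ± 0.06, adjusted p = 9e-06) stood at the edge of the fold required. It was not called without G2 replicate 1 (-0.56), without G2 replicate 2 (-0.57), without WT replicate 1 (-0.55) or with libraries scaled to the same total (-0.41).

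GATA2 and GATA3 went apart. GATA2, on chr3:128479422-128493201 (minus strand), acts in blood progenitors and in sympathetic precursors. Its normalized counts were 12305, 12985 and 13556 in G2, 22145, 21761 and 23916 in SCR, and 25886 and 27097 in WT. The lines were separate, with G2 lowest. GATA2 fell 1.75-fold in G2/SCR (log2 fold change -0.80 ± 0.06, limma adjusted p = 2e-07) and 2.05-fold in G2/WT (-1.03 ± 0.06, adjusted p = 6.3e-08), and its SCR/WT difference of -0.23 (adjusted p = 0.014) was not called.

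GATA3, on chr10:8054688-8075198 (plus strand), maintains sympathetic neurons and also directs T cells. The G2 libraries held 17343, 18200 and 19075 normalized counts, the SCR libraries 14478, 13417 and 14493, and the WT libraries 15178 and 14749. All G2 libraries were above all controls, and those of SCR below those of WT. The log2 fold change was 0.37 (95% interval 0.25 to 0.48, limma adjusted p = 0.00014) in G2/SCR and 0.28 (0.15 to 0.41, with 0.002 after adjustment) in G2/WT, or 1.29-fold and 1.22-fold, below the fold required. In SCR/WT it was -0.08 (adjusted p = 0.31).

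INSM1 was hardly measured. The gene, on chr20:20368104-20370949 (plus strand), was listed at 11.3 normalized counts in G2 replicate 1 and at 3.06 in SCR replicate 1, and at 0 in the other 6 libraries. The floor of 9 recovered counts corresponds to 6.80 to 11.2 normalized counts depending on the library, so that only G2 replicate 1 stood above its own floor. Its mean was under the 10 required for the test, and no fold is given.

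**Figure D2:**
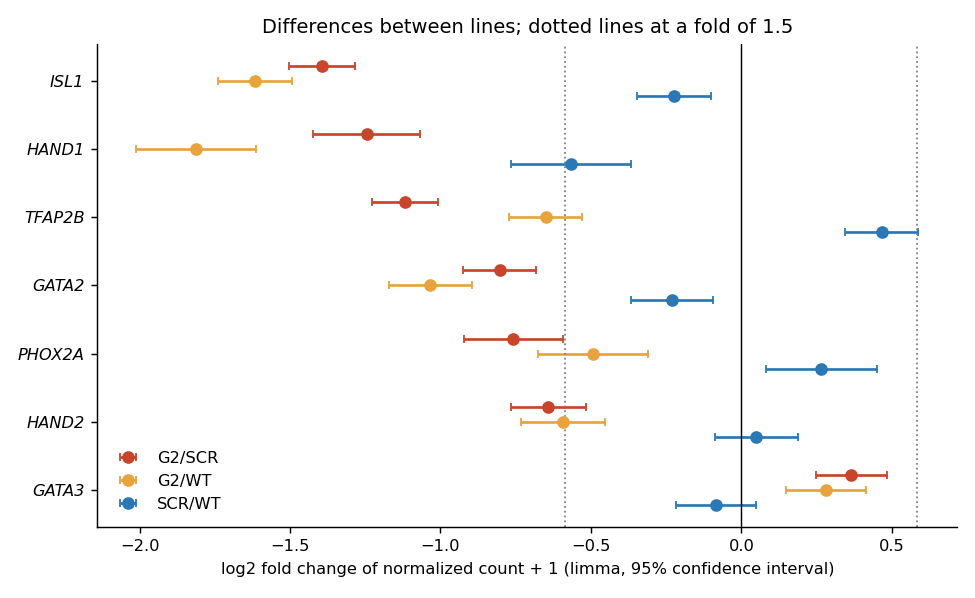
Log2 fold change of the normalized count plus 1 (horizontal axis) for the 7 members tested, in G2/SCR (red), G2/WT (orange) and SCR/WT (blue), with 95% confidence intervals from limma. Dotted lines mark a fold of 1.5. ISL1 at -1.39 and HAND1 at -1.25 lie farthest left in G2/SCR, and GATA3 at 0.37 is the member to the right of 0 in both G2 comparisons.

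When the 3 G2 libraries were set against all 5 controls, the 7 tested members gave groups that did not overlap, 6 with G2 below and GATA3 with G2 above. Over all genes tested, 42.5% showed such a separation, 19.7% with G2 below and 22.8% with G2 above. The exact two-sided permutation test gave p = 0.01786 for each of the 7, which is the smallest that 56 groupings allow, and 0.732 for INSM1. The difference between G2 and the controls was -1.48 for ISL1, -1.47 for HAND1, -0.93 for TFAP2B, -0.90 for GATA2, -0.65 for PHOX2A, -0.62 for HAND2 and 0.33 for GATA3 on the log2 scale.

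The members differed in level as well as in change. Per kilobase of merged exons, which allows levels of different genes to be set side by side, the order in SCR and WT was HAND2, PHOX2A, GATA2, GATA3, HAND1, ISL1, TFAP2B and INSM1. In SCR the mean was 14576 ± 482 (SD, n = 3) normalized counts per kilobase for HAND2 and 1734 ± 43.9 for TFAP2B. HAND2 and PHOX2A overlapped in their SCR libraries, with 14064 ± 955 per kilobase for PHOX2A, and likewise in G2, where the means were 9352 ± 591 and 8322 ± 724. In WT, GATA3 and HAND1 overlapped, at 4406 ± 89.4 and 4341 ± 458 (n = 2). The other neighbours in the order did not overlap in their line.

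In G2 cells GATA3 stood above GATA2. Per kilobase, GATA3 had 5361 ± 255 and GATA2 2635 ± 127 in G2, while SCR had 4161 ± 182 for GATA3 and 4600 ± 234 for GATA2, and WT had 4406 ± 89.4 and 5390 ± 174. The GATA3 share of the members' summed level per kilobase was 18.7% ± 0.311 in G2, 9.35% ± 0.179 in SCR and 10.02% ± 0.277 in WT. HAND2 had a share of 32.7% ± 0.508, 32.8% ± 0.357 and 32.0% ± 0.113 in the same order of lines, while the HAND1 share was 4.31% ± 0.179, 6.59% ± 0.473 and 9.85% ± 0.570.

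**Figure D3:**
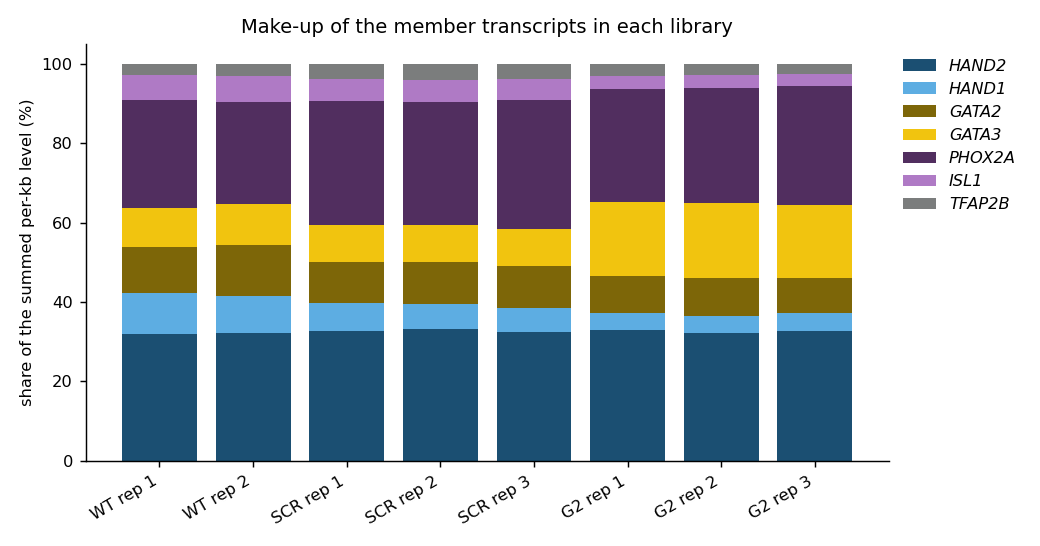
Share of each member in the summed level per kilobase of the members (vertical axis, percent) in the 8 libraries; INSM1 is too low to be drawn. The GATA3 band is 18.7% of the sum on average in G2 against 9.35% in SCR and 10.02% in WT, and the HAND2 band is between 32.0% and 32.8% in every line.

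Ratios of normalized counts within a library do not depend on how the libraries were scaled to each other, and 5 were computed. They were chosen after the values were seen and are given as a description, with no test. The ratio of GATA3 to GATA2 was 1.409, 1.402 and 1.407 in G2, 0.654, 0.617 and 0.606 in SCR, and 0.586 and 0.544 in WT. No control library reached the G2 values. The ratio of HAND1 to HAND2 was 0.0592 to 0.0663 in G2, 0.0902 to 0.102 in SCR and 0.139 to 0.152 in WT, and that of ISL1 to HAND2 0.0720 to 0.0809, 0.128 to 0.133 and 0.157 to 0.159. Both ratios were lower in every G2 library than in every control, and lower in every SCR library than in either WT library.

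In the other ratios every G2 library was below every SCR library, but G2 and WT overlapped. TFAP2B to HAND2 was 0.139 to 0.154 in G2, 0.202 to 0.206 in SCR and 0.145 to 0.160 in WT, where G2 and WT overlapped. PHOX2A to HAND2 was 0.424 to 0.449 in G2, 0.465 to 0.498 in SCR and 0.398 to 0.424 in WT. The overlap with WT was slight, as the lowest G2 library had 0.42415 and the highest WT library 0.42419.

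**Figure D4:**
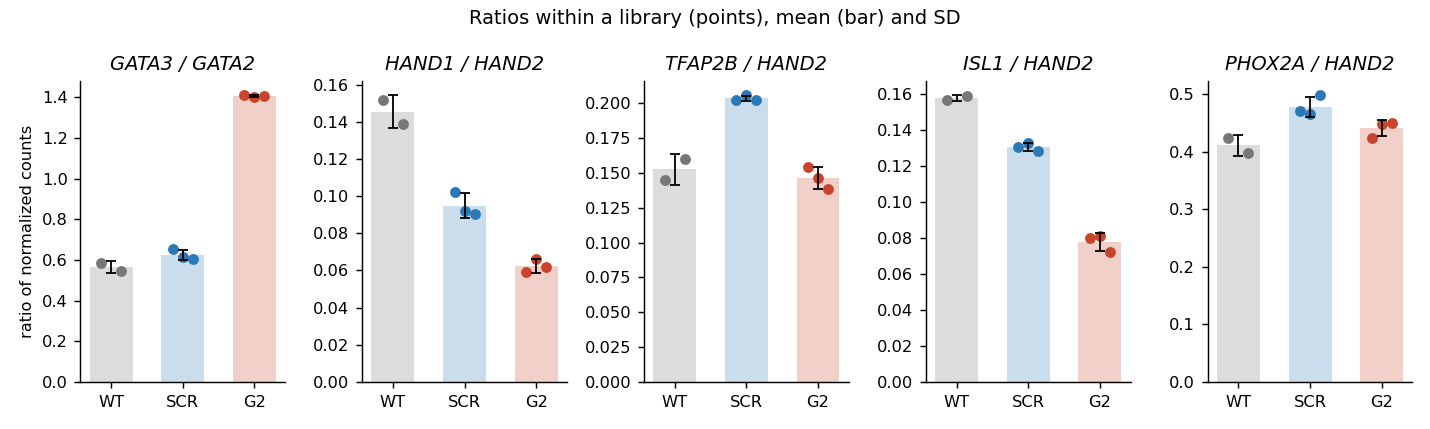
Ratio of normalized counts of 2 members within a library (vertical axis, a separate scale for each panel) in WT (grey), SCR (blue) and G2 (red), with points for libraries, bars for means and error bars for the SD. GATA3 to GATA2 is about 1.41 in G2 and at most 0.654 in the controls, and PHOX2A to HAND2 overlaps between G2 and WT.

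Each of 4 members has a divergent or antisense transcript, and these did not follow their neighbours alike. ISL1-DT, on chr5:51372736-51383332 (minus strand), whose window shares the GATA box shown above, had 960, 953 and 1171 normalized counts in G2, 2314, 2205 and 2245 in SCR, and 2142 and 1942 in WT. It fell with ISL1, by 2.20-fold in G2/SCR (log2 fold change -1.14 ± 0.09, limma adjusted p = 3.7e-07) and 1.99-fold in G2/WT (-0.99 ± 0.10, adjusted p = 3.6e-06). The starts of the pair overlap in the table, so reads there may be counted for either.

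HAND2-AS1 was not called. It had 15334, 15389 and 15850 normalized counts in G2, 19378, 20145 and 19490 in SCR, and 16503 and 17578 in WT. The log2 difference of G2 was -0.34 from SCR and -0.13 from WT (limma adjusted p = 8.7e-05 and 0.053). All G2 libraries were nonetheless below all controls. GATA2-AS1 had means of 783 ± 53.9 in G2, 728 ± 51.2 in SCR (n = 3) and 872 ± 11.6 in WT (n = 2), and GATA3-AS1 1063 ± 58.0, 1138 ± 91.7 and 1126 ± 176; neither was called in any comparison. HAND2-AS1 and GATA2-AS1 overlap the genes they are named for, and without the strand setting their reads cannot be told apart with certainty.

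Relatives of the members showed other patterns. INSM2, the paralog of INSM1, was measured well, at 1350, 1467 and 1616 normalized counts in G2, 2815, 2723 and 2985 in SCR, and 7153 and 6757 in WT. It fell in G2/SCR (log2 fold change -0.95, limma adjusted p = 5e-07), fell further in G2/WT (-2.24, adjusted p = 7.5e-10) and was also lower in SCR than in WT (-1.29, adjusted p = 6.8e-07). GATA4, a GATA factor best known from heart and gonad, had means of 2065 ± 63.6 in G2, 2657 ± 111 in SCR and 2385 ± 92.6 in WT and was not called. ISL2 was not called either, at 325 ± 66.1, 389 ± 8.27 and 296 ± 8.35. GATA1, GATA6 and TFAP2C were listed at 0 in all 8 libraries. GATA5, TFAP2D and TFAP2E had means under 100 in every line, of which GATA5 was called higher in SCR/WT (0.89), TFAP2D lower in G2/SCR (-2.71) and higher in SCR/WT (3.51), and TFAP2E higher in G2/WT (1.62).

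The genes whose profile over the 8 libraries lay nearest to each member were found in 12587 genes whose mean reached 100, by the root mean square distance of centred log2 values. For ISL1 these were NSG2, a neuronal endosomal protein, at a distance of 0.0506 and CKMT1A, a mitochondrial creatine kinase with a near-identical copy, at 0.0532. HAND1 was nearest to NNAT (0.0705) and CACNG4 (0.122), HAND2 to PTP4A3 (0.0465) and ZBED6CL (0.0522), and PHOX2A to CHST8 (0.0420) and KLHL17 (0.0497). GATA2 lay nearest to FAM167A (0.0488) and CBSL (0.0539), the latter a near-identical copy of CBS, and GATA3 to SLC46A1 (0.0324) and ZDHHC5 (0.0341). TFAP2B lay nearest to ATP6V1G2, a subunit of the vacuolar proton pump (0.05003), and C14orf132 (0.0569). Among the members themselves, PHOX2A and HAND2 were 0.0948 apart and HAND1 and ISL1 0.156.

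A list of 16 noradrenergic genes, written with earlier results of these data known, was examined next. Whether the members control these genes here was not tested. In G2/SCR 13 were lower, 1 was higher and 2 were not called, with a median log2 fold change of -0.92, and in G2/WT 12 were lower and 2 higher, with a median of -1.14. Of all genes tested, 11.8% were lower and 15.1% higher in G2/SCR, and 12.2% and 17.7% in G2/WT. DBH, which makes noradrenaline from dopamine, had means of 15234 ± 349 in G2, 50905 ± 1719 in SCR and 61145 ± 2715 in WT, and fell 3.34-fold in G2/SCR and 4.01-fold in G2/WT (limma adjusted p = 9.6e-11 and 6.9e-11). CHGA, the chromogranin of secretory granules, fell further, by 8.43-fold and 10.8-fold, from 26130 ± 1788 in SCR and 33445 ± 3041 in WT to 3101 ± 254 in G2.

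The noradrenaline transporter SLC6A2 fell 2.93-fold in G2/SCR and 2.98-fold in G2/WT, DDC, which makes dopamine, 2.56-fold and 2.26-fold, and CHGB 1.82-fold and 2.94-fold. NPY, the neuropeptide co-released with noradrenaline, was the gene of the list that rose in G2/SCR, with means of 351470 ± 24737 in G2 and 105212 ± 4359 in SCR. SLC18A2, a vesicular monoamine transporter at a low level, had 67.4 ± 13.4 in G2, 111 ± 15.5 in SCR and 28.5 ± 15.8 in WT, so that it was lower in G2/SCR (adjusted p = 0.058 in limma) and higher in G2/WT (adjusted p = 0.0051). TH, which makes the precursor of dopamine, was near the floor, at 1.88 ± 3.26 in G2, 13.997 ± 11.1 in SCR and 16.9 ± 4.22 in WT. In SCR/WT 2 of the 16 were lower, 1 higher and 13 not called, with a median of -0.24, where 16.3% of all genes were called.

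Other transcription factors of the adrenergic state were split in direction. Their log2 fold changes were positive for 7 and negative for 8 in G2/SCR, and for 6 and 9 in G2/WT. Of 15 tested in a list of 16, 5 were called higher and 2 lower in G2/SCR, and 5 higher and 4 lower in G2/WT. The medians were -0.11 and -0.02. Among all genes tested, 15.1% were higher and 11.8% lower in G2/SCR, and 17.7% and 12.2% in G2/WT. In SCR/WT 1 of the 15 was higher and 3 were lower, where 10.7% of all genes were higher and 5.63% lower. The Notch target HEY1 rose from 4591 ± 304 in SCR and 1838 ± 122 in WT to 16691 ± 540 in G2. DACH1 rose 11.02-fold in G2/SCR and 3.59-fold in G2/WT, with means of 339 in G2, 30.4 in SCR and 93.5 in WT. It was also lower in SCR than in WT (log2 fold change -1.62, limma adjusted p = 0.00018). TBX2 rose 2.12-fold and 2.92-fold. SIX3 fell 2.36-fold and 2.43-fold. KLF7 was listed at 0 throughout.

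Among 19 tested mesenchymal factors of a list of 24, 12 were higher and 1 lower in G2/SCR, and 15 were higher and none lower in G2/WT, with medians of 1.31 and 3.01. Over all genes tested, 15.1% were higher and 11.8% lower in G2/SCR, and 17.7% and 12.2% in G2/WT. SOX9 rose 10.98-fold in G2/SCR and 33.4-fold in G2/WT, to 3302 ± 167 in G2, and FOSL2 rose 5.36-fold and 6.18-fold, to 1877 ± 80.6. YAP1 rose 7.81-fold in G2/SCR and 55.7-fold in G2/WT, and TBX18 had 364 ± 30.1 in G2 against 5.44 ± 2.61 in SCR and 3.97 ± 1.41 in WT. In SCR/WT 6 of the 19 were higher and none lower, with a median of 0.33, where 10.7% of all genes were higher and 5.63% lower.

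**Figure D5:**
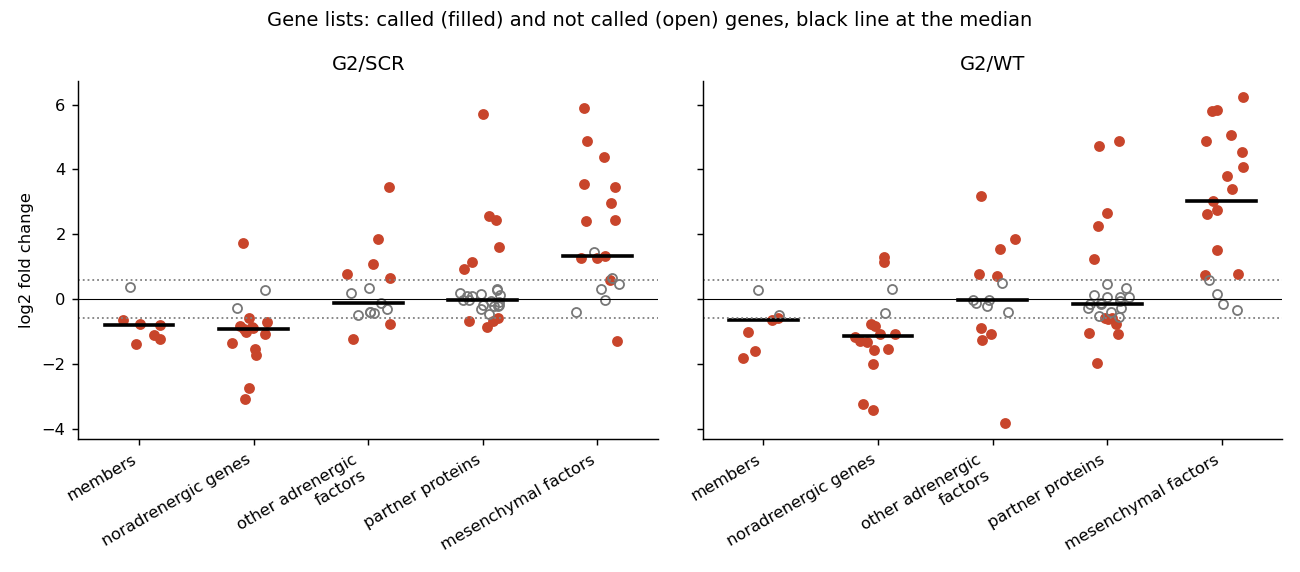
Log2 fold change (vertical axis) of each tested gene of 5 lists in G2/SCR (left) and G2/WT (right); filled points were called, open points were not, black lines are medians and dotted lines a fold of 1.5. The members and noradrenergic genes lie mostly below 0 (medians -0.80 and -0.92 in G2/SCR), the mesenchymal factors mostly above (1.31).

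Partner proteins with which the members form complexes were counted last. These include LIM-only proteins, their scaffold proteins, E proteins, Id proteins, which block basic helix-loop-helix dimers, FOG proteins, corepressors and coactivators. Of 27 tested in a list of 29, 6 were higher and 4 lower in G2/SCR, 5 higher and 7 lower in G2/WT, and 2 higher and 4 lower in SCR/WT. The called part was 37.0%, 44.4% and 22.2%, against 26.9%, 29.9% and 16.3% of all genes tested. Some of these genes also stand in the lists of adrenergic or mesenchymal factors. LMO4 was at 63.7 ± 21.4 in SCR and 124 ± 20.3 in WT and at 3272 ± 23.9 in G2, a rise of 52.7-fold and 26.4-fold (limma adjusted p = 6.7e-10 and 1e-08). ID4 rose 5.43-fold in G2/SCR and 29.6-fold in G2/WT, and SSBP2, which binds the LIM-domain scaffold, 5.84-fold and 4.80-fold. LMO3 fell 1.52-fold and 3.90-fold. HDAC1 rose 1.90-fold in G2/SCR and was not called in G2/WT (0.47).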

How the data were processed

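Polyadenylated RNA of 8 SH-SY5Y libraries was sequenced in pairs from a stranded mRNA kit. Per the methods and the submitters' processing notes, the authors used STAR to map to hg38, featureCounts (Subread 1.5.0) to count on FAST DB genes, and DESeq2 to normalize. The deposited signal is this normalized count, a gene's count divided by the size factor of its library. The counting strand and the treatment of reads matching several genes are not given in the sources used here. Dividing by each library's step gave whole counts for 100% of values (tolerance 0.01). The totals of 59804395 to 81080747 were divided by 3 for read pairs, since most small counts (67.1% to 71.5% per library) were multiples of 3. The floor covers counting error only, while the 95% intervals of fold changes come from limma and the spread between libraries.

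limma 3.58.1 in R 4.3.3 was run on log2(value + 1) for 18947 genes whose mean reached 10 (lmFit with a mean for each line, eBayes with a trend). Fold changes are on that scale. Adjusted p-values are Benjamini-Hochberg over all genes tested. Single genes were also tested by exact permutation of the 3 G2 libraries against the 5 controls. As alternatives in G2/SCR, DESeq2 1.42.0 called 4973 genes and edgeR 4.0.16 called 5093 from the recovered counts. The recovered counts were not divided by 3 for these models, so the counting error in them may be understated. The fit was tested on simulated data with 200 changed genes.

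The members and all lists were chosen with earlier results of these data known. Genes named from a list are the 4 with the smallest p in G2/SCR and the 2 with the largest SCR/WT difference, with all tested paralogs and antisense genes, and the 2 nearest profiles of each member. NPY, TH and TUBB3 were named after their values were seen, and SOX10, FN1, KLF7, GATA1, GATA6 and TFAP2C because they were listed at or near 0. Levels per kilobase use merged exons of GENCODE 44. Promoters come from RefSeq on GRCh38.p14, and the table's own starts lie 325 bases before the ISL1 start, 37 bases from that of HAND1 and 1 base from that of TFAP2B. Some genes of the lists are not reported here.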

Additional observations from a re-analysis of the deposited data

How the results depend on the processing

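No member changed direction in G2/SCR over 21 settings or in G2/WT over 19. Some of these settings could not change a direction. The adjusted p, the fold of 2 and the filters on the mean keep each gene's fold change. Leaving out a library of the line not compared keeps it too. In SCR/WT, with libraries scaled to the same total, GATA2 turned to 0.047, ISL1 to 0.053 and GATA3 to 0.19 (0.13 without ribosomal RNA genes). These scalings move the median of all genes: to -0.10 in G2/SCR, 0.19 in G2/WT and 0.29 in SCR/WT at the same total, with 47.4%, 75.8% and 90.7% of calls higher, against 56.2%, 59.3% and 65.6%. They left 3 members called in G2/WT and 1 in SCR/WT (TFAP2B), and 1 noradrenergic gene in SCR/WT (3 otherwise). At a fold of 2, 3 members passed in each of G2/SCR and G2/WT, and so did 8 noradrenergic genes, 4 other adrenergic factors and 5 partners in G2/SCR, and 1 noradrenergic gene and 3 partners in SCR/WT, by the stricter threshold itself. Over all genes, 2951, 3176 and 1491 then passed, and 3088, 3633 and 1723 with a mean of at least 100, against 5088, 5657 and 3097. Leaving out each library in turn gave 6 members in G2/SCR, 4 to 5 in G2/WT and 0 to 1 in SCR/WT, and the TFAP2B to HAND2 ratio in G2 minus WT (log2 difference -0.06) ran from -0.13 to 0.015, above 0 without WT replicate 2; the cause was not tested.

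Replicate numbers did not pair the libraries, since correlations of same-numbered deviations were between -0.03 and 0.04. With the replicate number as a block, the counts of members were 6, 5 and 0 and no member's call changed, with 5059, 5644 and 3057 genes called. Blocking on the number in the library name gave 1 member in SCR/WT (HAND1, -0.66) and called PHOX2A in G2/WT (-0.61).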

Other observations

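Some related factors differed between the control lines more than the members did. SIX4, a homeodomain factor, had means of 122 ± 4.02 in G2, 78.1 ± 15.9 in SCR (n = 3) and 9.81 ± 8.60 in WT (n = 2) and was higher in G2/WT (3.79) and SCR/WT (3.13), with 0.66 in G2/SCR, which was not called (limma adjusted p = 0.18). TFAP2D, which lies on chromosome 6 like TFAP2B, had 47.8 ± 20.5 in SCR, 6.61 ± 3.95 in G2 and 7.45 ± 10.5 in WT, where the last 2 groups are near the floor.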
